A study of Mus musculus with 6 samples.

Results

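The genes described here are 10 members of the Toll-like receptor pathway (Tlr1, Tlr2, Tlr3, Tlr4, Tlr6, Myd88, Irak1, Irak2, Irak3 and Ripk1), followed through 3 lists of p65 ChIP–seq peaks from mouse epidermal cells. ChIP–seq reads out the DNA bound to a chromatin protein, here p65, and a peak is a stretch where such fragments pile up. A peak was counted for a gene when the start site nearest to the middle of the peak, among curated RefSeq transcripts, was that of the gene, and every peak with its middle within 50 kb of a member's start site was listed as well. Of the 18708 peaks in the lists, 28 met either rule (12 of 8525 in adult, 9 of 4169 in aged/control IgG and 7 of 6014 in aged/anti-IL-17A/F), and merged over the lists they formed 12 of 9513 regions. The members are 10 of 20923 protein-coding genes.

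All mice were C57bl/6J, and each list came from a pool of 4 mice. The adult mice, between 17 and 25 weeks old in the study, were not treated. The aged mice had 12 weeks of intraperitoneal injections from 73 weeks of age, either of a control IgG or of blocking antibodies against the cytokines IL-17A and IL-17F. The experiment asked where p65 sits in the epidermis with age and after the blockade of IL-17A/F. The cells were a trypsin suspension of epidermis, a mix of cell types, and a lower enrichment could come from fewer cells with bound p65 or from less binding per cell, which cannot be told apart.

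Toll-like receptors recognize parts of microbes at the cell surface (Tlr1, Tlr2, Tlr4 and Tlr6) or in endosomes (Tlr3). Most of them recruit the adaptor Myd88, which brings in the kinases of the Irak family, and Irak3 restrains this step. Tlr3 signals without Myd88 and can engage the kinase Ripk1. The pathway ends in the release of NF-κB, a family of dimers that includes p65 (encoded by Rela), and several genes of the pathway are themselves known targets of NF-κB in other cells.

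The lists hold no replicates, so that no value has an error and no test between conditions was possible. Fold enrichment is the authors' ratio of the signal at the summit, the highest point of a peak, to the local background. The number of reads behind a single peak is unknown. Because the conditions differed in the number of peaks, the place of a peak is also given as a percentile, the share of the peaks of its list that ranked below it in fold enrichment. A longer list can hold more weak peaks, which raises the percentile of the same peak, so that percentiles of different lists are not strictly comparable. The lowest, median and highest fold enrichment were 1.85, 3.60 and 23.6 in adult, 1.90, 3.80 and 19.2 in aged/control IgG, and 1.93, 3.69 and 22.3 in aged/anti-IL-17A/F. Inside the list labelled adult, the peak names begin with the same word as those in the aged/anti-IL-17A/F list, although no peak of these lists had the same start and end in both. The labels were kept. If these lists were exchanged, each value given for adult would belong to aged/anti-IL-17A/F and the reverse, and the values of aged/control IgG would stay.

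The sequences of the main regions are given first, in the mm10 reference, 5′ to 3′, with matches to the 10-base NF-κB consensus on either strand in capitals and overlapping matches merged into 1 run. The promoter of Tlr2 and its upstream regions are shown because they hold matches inside peaks. The Irak3 and Myd88 regions are shown because they were among the strongest near any member and hold no match, and the Tlr3 and Irak2 regions because a match lies near a summit.
Tlr2 promoter, chr3:83841599-83841858, minus strand: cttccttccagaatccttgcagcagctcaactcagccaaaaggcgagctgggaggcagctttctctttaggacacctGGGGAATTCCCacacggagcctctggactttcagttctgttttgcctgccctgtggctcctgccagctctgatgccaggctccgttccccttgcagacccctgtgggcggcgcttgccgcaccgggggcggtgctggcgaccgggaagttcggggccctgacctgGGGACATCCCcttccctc
Tlr2 upstream, chr3:83862946-83863196, plus strand: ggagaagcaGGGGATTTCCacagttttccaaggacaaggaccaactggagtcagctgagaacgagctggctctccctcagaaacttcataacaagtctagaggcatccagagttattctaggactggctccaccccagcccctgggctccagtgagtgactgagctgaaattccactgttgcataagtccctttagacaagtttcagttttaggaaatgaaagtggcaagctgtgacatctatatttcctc
Tlr2 far upstream, chr3:83899843-83899963, plus strand: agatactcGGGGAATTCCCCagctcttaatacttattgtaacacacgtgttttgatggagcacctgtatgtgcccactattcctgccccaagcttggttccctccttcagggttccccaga
Irak3 intron 1, chr10:120191305-120191505, plus strand: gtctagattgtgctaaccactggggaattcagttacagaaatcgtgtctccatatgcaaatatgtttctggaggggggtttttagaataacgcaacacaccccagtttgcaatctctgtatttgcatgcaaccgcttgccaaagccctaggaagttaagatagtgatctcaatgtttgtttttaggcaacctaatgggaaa
Between Myd88 and Acaa1a, chr9:119341047-119341247, plus strand: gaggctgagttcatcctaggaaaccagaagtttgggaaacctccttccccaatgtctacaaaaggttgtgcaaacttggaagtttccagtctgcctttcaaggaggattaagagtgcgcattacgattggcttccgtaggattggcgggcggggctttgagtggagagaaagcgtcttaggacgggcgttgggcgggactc
Downstream of Tlr3, chr8:45389366-45389486, plus strand: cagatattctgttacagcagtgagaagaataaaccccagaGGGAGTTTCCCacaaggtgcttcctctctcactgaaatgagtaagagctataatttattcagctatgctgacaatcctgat
Irak2 intron 3, chr6:113668814-113668914, plus strand: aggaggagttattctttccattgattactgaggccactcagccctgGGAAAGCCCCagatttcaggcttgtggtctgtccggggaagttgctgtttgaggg
These stretches were centered on the summit in adult, except the stretch downstream of Tlr3, centered on the summit in aged/control IgG, and the promoter of Tlr2, which was taken from RefSeq.

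By the nearest start site, Tlr2 was the only member with a p65 peak, in each of the 3 lists. This was 1 of 10 members in adult, where 23.1% of all protein-coding genes had a peak, 1 of 10 in aged/control IgG, where 12.9% did, and 1 of 10 in aged/anti-IL-17A/F, where 17.4% did. The side of these shares on which the members fell depended on the start sites: with those of protein-coding genes only, Irak3 was added, and 2 of 10 members stood beside 25% of all genes in adult, 14.4% in aged/control IgG and 19.3% in aged/anti-IL-17A/F. Within 50 kb of a start site, 7 of 10 members had a peak in adult (Tlr1, Tlr2, Tlr3, Tlr6, Myd88, Irak2 and Irak3), beside 43.6% of all protein-coding genes. In aged/control IgG there were 4 of 10, beside 27.6%, and in aged/anti-IL-17A/F also 4 of 10, beside 35.1%. The 4 genes were Tlr2, Tlr3, Myd88 and Irak3 in both aged lists. These counts include peaks whose nearest start site belongs to another gene, and with 10 genes the 95% Wilson interval of 7 of 10 runs from 39.7 to 89.2%, for counting error only. The interval takes the genes as independent, whereas Tlr1 and Tlr6 were counted through the same adult peak. Tlr4, Irak1 and Ripk1 had no peak within 50 kb in any list.

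**Figure D1:**
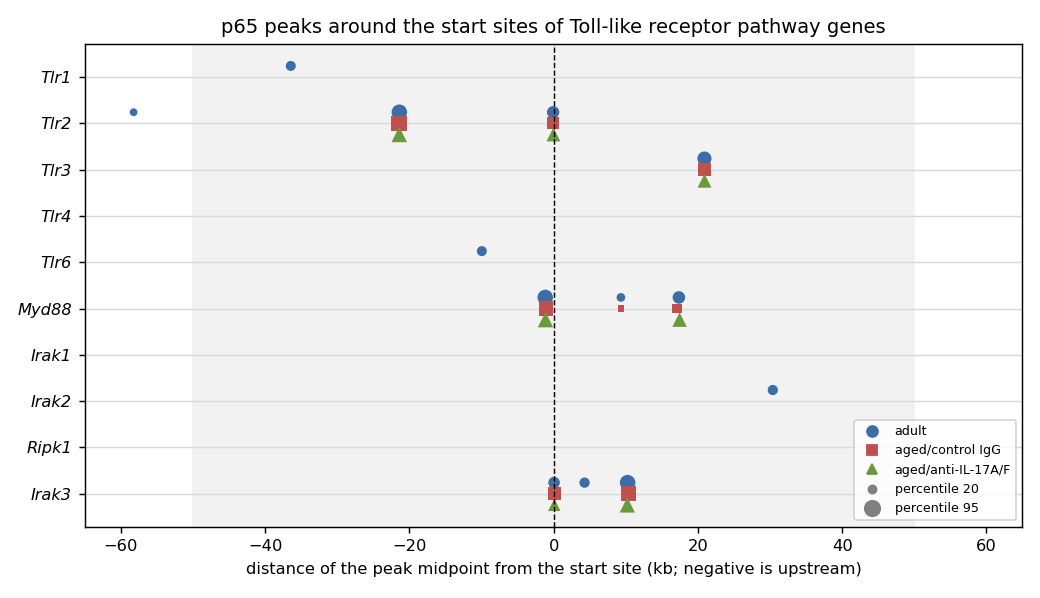
Position of every p65 peak near the 10 members. The x axis gives the distance of the middle of the peak from the nearest curated start site of the member in kb, negative upstream, symbols stand for the lists, larger symbols for a higher percentile of fold enrichment, and the shaded band for the 50 kb limit. Only Tlr2 and Irak3 have peaks at the start site itself, and Tlr4, Irak1 and Ripk1 have none in the range drawn.

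Tlr2, which encodes the receptor for bacterial lipoproteins, pairs with Tlr1 or Tlr6. It is read from the minus strand of chromosome 3 with its start at 83841608. A peak covered this start in every list. The fold enrichment was 3.89 in adult, 4.12 in aged/control IgG and 5.07 in aged/anti-IL-17A/F, at percentiles 58.6, 57.7 and 76.1. Ranked by −log10 q in place of fold enrichment, the percentiles were 71.1, 52.2 and 73.3, so that the place of adult between the aged lists depended on the measure. The summits lay 75, 12 and 15 bp upstream of the start, respectively. The promoter has 3 matches to the consensus, starting 173, 172 and 8 bp before the start. The first pair overlaps, and the third covers the start itself. The middle of the third match was 72 bp from the summit in adult, 9 bp in aged/control IgG and, in aged/anti-IL-17A/F, 12 bp.

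The strongest peak of Tlr2 was upstream of the gene, between genes, and was also found in every list. Its middle lay 21390 bp before the start in adult, 21412 bp in aged/control IgG and, at 21403 bp, much the same in aged/anti-IL-17A/F. Its fold enrichment was 10.4 in adult, 8.66 in aged/control IgG and 10.1 in aged/anti-IL-17A/F. In percentiles this was 96.7, 95.3 and 96.8, so that the peak belonged to the strongest 10% of each list. It holds 1 consensus match, 112, 72 and 106 bp from the summits of adult, aged/control IgG and aged/anti-IL-17A/F. A further peak was listed in adult alone, from 83899664 to 83900013, which is 58231 bp upstream of Tlr2 and inside intron 33 of the neighboring gene Tmem131l. It was weak, with a fold enrichment of 2.83 at percentile 18.0, and its run of overlapping matches lay 46 to 48 bp from the summit.

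Irak3 encodes a member of the Irak family that dampens signaling from Myd88. It had a peak over its start site and a stronger one in its first intron in every list, but none was counted by the nearest start site. The long noncoding RNA Gm38500 starts on the opposite strand at 120201590, only 7 bp from the Irak3 start at 120201597 on chromosome 10, and took all of them. The fold enrichment over the start was 3.60 in adult, 4.18 in aged/control IgG and 4.03 in aged/anti-IL-17A/F, at percentiles 50, 59.5 and 59.6. Here the value in adult was the lowest of the 3, in the middle of its list.

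The intronic peak of Irak3 was about 10 kb into the gene, with summits 10192, 10230 and 10201 bp from the start in adult, aged/control IgG and aged/anti-IL-17A/F. Its fold enrichment was 11.1 in adult, 8.72 in aged/control IgG and 9.29 in aged/anti-IL-17A/F. At percentiles 97.4, 95.4 and 95.8, it was the strongest region near any member in adult and in aged/control IgG. No consensus match was found anywhere in this peak in any list, nor the looser motif GGGNNNNNCC, which contains the consensus, within 100 bp of a summit. A weaker peak in the same intron, 4290 bp from the start, was listed in adult alone with a fold enrichment of 3.27 at percentile 38.0.

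Myd88, the adaptor shared by most of the receptors, starts at 119340018 on the minus strand of chromosome 9. The gene Acaa1a, for a peroxisomal enzyme of fatty acid breakdown, starts 1276 bp away at 119341294 and runs in the opposite direction. In every list, a peak lay in the gap between them and covered the start of Acaa1a, to which it was assigned. The fold enrichment was 10.5 in adult, 5.58 in aged/control IgG and 9.30 in aged/anti-IL-17A/F, at percentiles 96.9, 81.3 and 95.9. The values of adult and of aged/anti-IL-17A/F were close to each other, and the aged/control IgG value was apart from both. Ranked by −log10 q, the percentiles were 97.1, 89.1 and 96.0, a smaller gap with aged/control IgG again the lowest. The summits were 1129, 1114 and 1118 bp upstream of Myd88 in adult, aged/control IgG and aged/anti-IL-17A/F, and 147, 162 and 158 bp from the start of Acaa1a. No match to the consensus was found in these peaks, and none to the looser motif within 100 bp of their summits.

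Further from Myd88, 2 other regions were within 50 kb. The promoter of Oxsr1, a kinase gene of the osmotic stress response, lies 17591 bp downstream. It had a fold enrichment of 3.96 in adult and 5.84 in aged/anti-IL-17A/F, whereas aged/control IgG had 2 narrower peaks there, of 2.27 and 3.36. A peak between Myd88 and Oxsr1, about 9 kb from the start of Myd88, was listed in adult with 2.98 and in aged/control IgG with 2.79, whereas aged/anti-IL-17A/F lacked it. It was weak in both lists, at percentiles 24.7 and 10.8. No consensus match was found in either region.

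**Figure D2:**
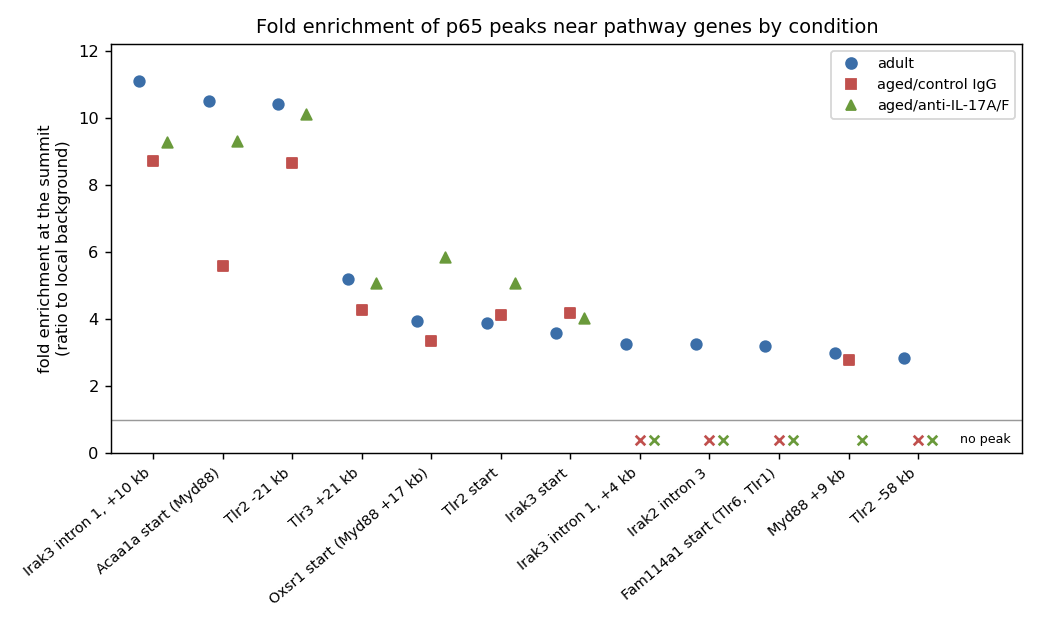
Fold enrichment at the summit of the p65 peaks near the members (y axis, ratio to local background) in the 12 regions (x axis), named by the gene or the distance from it. Each symbol is 1 pooled list and has no error, crosses mark lists without a peak, and of the 2 peaks of aged/control IgG at Oxsr1 the stronger is drawn. The 3 regions above 10 in adult were present in every list, and the largest gap between lists was at the start of Acaa1a, next to Myd88.

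Tlr3, the receptor for double-stranded RNA, had 1 peak within 50 kb, downstream of the gene and nearest to Fam149a. The middle of the peak was 20913 to 20937 bp from the start of Tlr3. The fold enrichment was 5.20 in adult, 4.26 in aged/control IgG and 5.08 in aged/anti-IL-17A/F, at percentiles 78.5, 61.7 and 76.3. A pair of overlapping consensus matches lies in this peak, and the nearer was 96, 15 and 64 bp from the summits of adult, aged/control IgG and aged/anti-IL-17A/F. The promoter of Tlr3 itself has a match 211 bp before the start, with no peak closer than 20864 bp to it in any list.

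Tlr1 and Tlr6 lie next to each other on chromosome 5 and encode the partners of Tlr2. Their closest peak, in adult alone, ran from 64969808 to 64970185 over the start of Fam114a1. Its middle was 9949 bp upstream of Tlr6 and 36439 bp upstream of Tlr1, with a fold enrichment of 3.20 at percentile 35.4. The closest peaks in aged/control IgG were 457 kb from Tlr6 and 431 kb from Tlr1, and in aged/anti-IL-17A/F 127 and 121 kb. Irak2, a kinase that sustains the signal, had a peak in adult alone, in intron 3, with its middle 30388 bp from the start. The fold enrichment was 3.26 at percentile 37.3, and a consensus match was centered on the summit.

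For Ripk1, without a peak within 50 kb in any list, the distance from the start to the closest peak was 75.2 kb in adult, 207 kb in aged/control IgG and 75.3 kb in aged/anti-IL-17A/F. For Irak1, a kinase that acts directly after Myd88, it was 109 kb in each list, to a peak nearest to Arhgap4. Tlr4, the receptor for lipopolysaccharide, was far from any peak, with 3082 kb in adult and in aged/control IgG and 2921 kb in aged/anti-IL-17A/F.

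Across the 12 regions, 7 had a peak in all 3 lists, 1 in adult and aged/control IgG and 4 in adult alone, and no region was absent from adult. Among all 9513 regions, 36.6% had a peak in all lists, 3.91% in adult and aged/control IgG and 31.6% in adult alone, and 10.9% were absent from adult. The 4 regions of adult alone (the far upstream region of Tlr2, the weaker Irak3 intronic region, the Irak2 intron and the start of Fam114a1) ranked between percentiles 18.0 and 38.0 of the adult list. Peaks of that strength were often missing elsewhere. In the 10% band of fold enrichment of the adult list that holds the Irak2, Fam114a1 and weaker Irak3 peaks, 76.6% of all peaks had no overlapping peak in aged/control IgG and, for 59.1%, aged/anti-IL-17A/F held none. For the far upstream region of Tlr2 the shares were 87.2% and 69.7%.

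To compare enrichment between lists, the ratio of the fold enrichments was taken for each shared region and set beside the same ratio for all regions that the lists share. Over 3858 regions, the median ratio of aged/control IgG to adult was 0.812. The Tlr2 upstream region had a ratio of 0.832, the Irak3 intron 0.786, the region downstream of Tlr3 0.820 and the Oxsr1 promoter 0.849, all close to that median. At the Oxsr1 promoter, the ratio used the stronger peak of aged/control IgG, whose summit was at another place than that of adult. The Tlr2 start had 1.06 and the Irak3 start 1.16, at percentiles 84.3 and 91.4 of all ratios. The region at Acaa1a and Myd88 had 0.531, at percentile 5. Strong adult peaks had lower ratios in general, with a median of 0.704 in the strongest 10% of the adult list, and among those regions the same ratio was at percentile 12.5.

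Between the aged lists, the median ratio of aged/anti-IL-17A/F to aged/control IgG was 1.10 over 3586 regions. It was 1.67 at Acaa1a and Myd88 (percentile 95.6) and 1.74 at the Oxsr1 promoter (percentile 97.2), where the 2 peaks of aged/control IgG were represented by the stronger. The summit of that stronger peak was 487 bp from the start of Oxsr1, beside 12 bp in aged/anti-IL-17A/F, so that this ratio compares different places. The other shared regions were between 0.966 at the Irak3 start and 1.23 at the Tlr2 start. Both ratios use the aged/control IgG list, so that a low value there lowers the first and raises the second. Without aged/control IgG, the ratio of aged/anti-IL-17A/F to adult was 0.885 at Acaa1a and Myd88, near the median of 0.900, 1.30 at the Tlr2 start (percentile 93.5) and 1.48 at the Oxsr1 promoter (percentile 97.7).

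**Figure D3:**
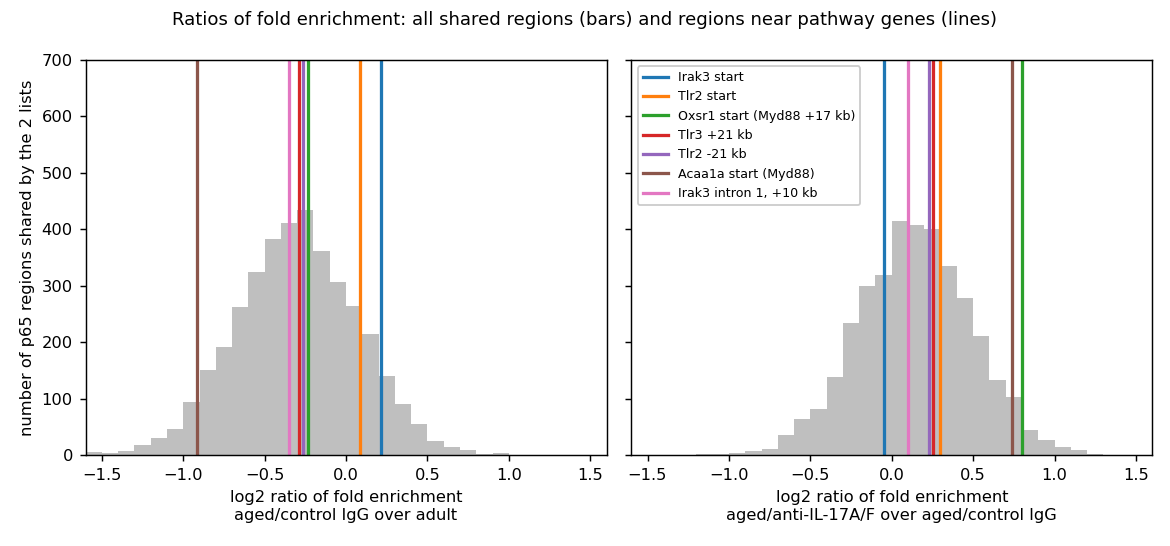
Log2 ratios of fold enrichment for all regions shared by 2 lists (gray bars, number of regions per bin of width 0.1) and for the 7 regions near members that had a peak in all 3 lists (colored lines). Left, aged/control IgG over adult, and right, aged/anti-IL-17A/F over aged/control IgG. The region at Acaa1a and Myd88 is toward the low end on the left and, with the Oxsr1 promoter, toward the high end on the right.

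The NF-κB consensus was within 100 bp of the summit in 4 of 12 peaks near members in adult, 3 of 9 in aged/control IgG and 2 of 7 in aged/anti-IL-17A/F (33.3%, 33.3% and 28.6%). Among all peaks, the shares were 28.5%, 37.8% and 34.9%, and in windows of the same width 2000 bp away 2.18%, 1.95% and 2.26%. The looser motif was near 67.9%, 72.8% and 70.3% of all summits, and in 21.4%, 21.8% and 21.9% of the windows 2000 bp away. Anywhere in the peak, a consensus match was found in 6 of 12 peaks near members in adult, beside 34.9% of all peaks. In aged/control IgG it was 3 of 9, beside 44.7%, and 3 of 7 in aged/anti-IL-17A/F, beside 41.9%. Over the lists, 6 of the 12 regions had a match, 3 of them at Tlr2. Matches outside Tlr2 were downstream of Tlr3, in the Irak2 intron and at Fam114a1. All regions at Irak3 and near Myd88 had none. In the strongest 10% of the adult list, which holds 2 of these peaks, the Irak3 peak 10 kb into the gene and the peak between Myd88 and Acaa1a, 31.3% of peaks had no match. The other match-free regions were weaker in adult, at percentile 60.4 or lower. Of 14 member promoters in the RefSeq table, for the 9 members other than Tlr4, those of Tlr2 and Tlr3 had a match (2 of 14), beside 1002 of 20418 promoters of all protein-coding genes (4.91%).

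**Figure D4:**
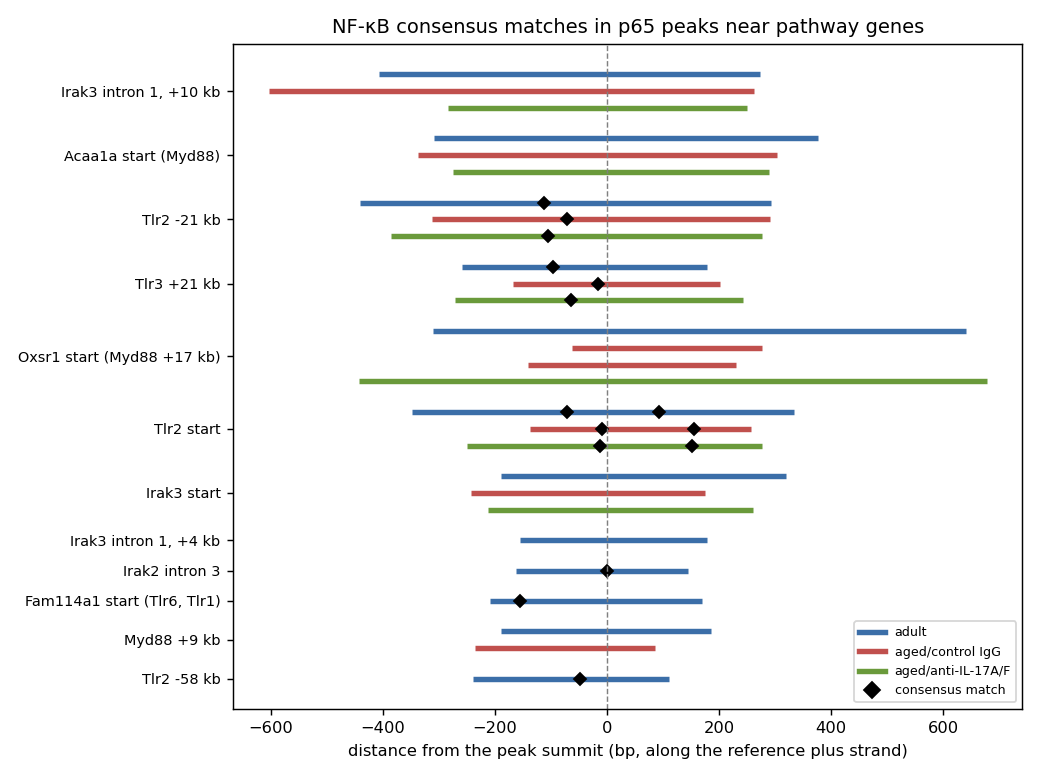
Extent of each p65 peak around its summit (bars, in bp along the plus strand of the reference, colored by list) and the places of NF-κB consensus matches (diamonds, overlapping matches drawn once) in the 12 regions. Matches are drawn in the 3 regions of Tlr2, downstream of Tlr3, in the Irak2 intron and at Fam114a1, and none at Irak3 or near Myd88.

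The other genes of the pathway were taken from a list of 47, ordered by role. By the nearest start site, 18 of 47 had a peak in adult (38.3%, 95% Wilson interval 25.8 to 52.6%), 10 in aged/control IgG (21.3%, 12.0 to 34.9%) and 13 in aged/anti-IL-17A/F (27.7%, 16.9 to 41.8%). All 3 shares were above those of all protein-coding genes given above. Of the kinases and ubiquitin ligases after the adaptors, 9 of 14 had a peak in adult (64.3%), 5 in aged/control IgG (35.7%) and 6 in aged/anti-IL-17A/F (42.9%). Transcription factors other than NF-κB had 3 of 6 in every list (50%). None of the 5 other adaptors had a peak in any list by this rule, whereas within 50 kb 4 of 5 had one in adult, 0 in aged/control IgG and 3 in aged/anti-IL-17A/F, beside 43.6%, 27.6% and 35.1% of all protein-coding genes. Among the inhibitors the counts were 2, 0 and 1 of 6, among the other Toll-like receptors 2, 1 and 2 of 7, and among co-receptors and proteins of ligand presentation 2, 1 and 1 of 9, in the order adult, aged/control IgG and aged/anti-IL-17A/F. Within 50 kb, the kinases and ubiquitin ligases had 12, 6 and 10 of 14 and the transcription factors 6, 5 and 5 of 6, in the same order. The inhibitors had 3, 2 and 2 of 6, the other Toll-like receptors 2 of 7 in every list, and the co-receptors 4, 3 and 4 of 9. Only the adaptors had 0 in aged/control IgG by that rule.

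**Figure D5:**
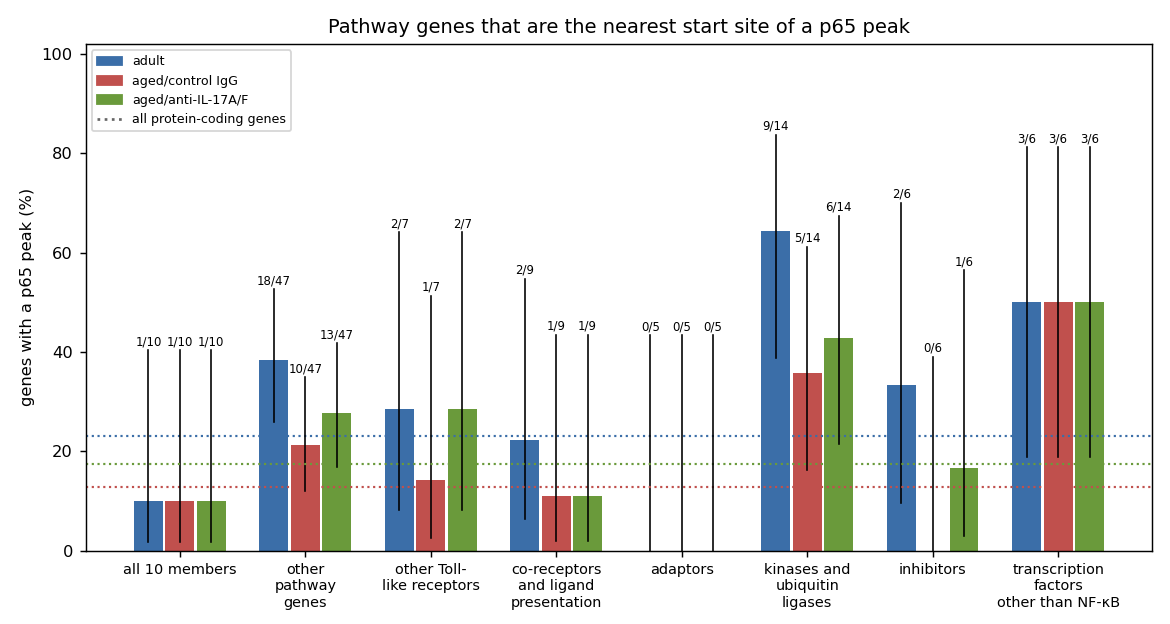
Share of genes that were the nearest start site of a p65 peak (y axis, percent), for the 10 members, the 47 other pathway genes and their roles (x axis). Bars are the 3 lists with the count above each, black lines 95% Wilson intervals for counting error only, and dotted lines the share of all protein-coding genes in the list of the same color. The members are below the dotted lines in every list, and the kinases and ubiquitin ligases and the transcription factors above them.

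Several of these genes had peaks in the strongest 10% of a list. The highest was at Atf3, a stress-induced transcription factor, with a fold enrichment of 15.9 in adult, 10.8 in aged/control IgG and 13.6 in aged/anti-IL-17A/F. Map3k7, the kinase TAK1 that activates the IκB kinases, had 11.7, 7.04 and 9.87 at its strongest peak, which was 90 and 110 bp from the start in adult and aged/anti-IL-17A/F but another peak, 185250 bp away, in aged/control IgG. For Ikbke, an IκB kinase family member, the values were 9.22, 7.68 and 11.8. Traf3, a ubiquitin ligase, had 8.94, 7.32 and 7.49, and Creb1, a transcription factor, 10.6, 6.58 and 6.29. A peak near Map3k8, a kinase upstream of the MAP kinases, had 10.2, 8.29 and 12.8, and was assigned to it in adult only, since the middle moved to the neighboring 4833419F23Rik in the aged lists.

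In all, 8 of the 47 genes (17%), Map3k8 among them, had a peak in some lists and not in others, near the 13.8% of all protein-coding genes with such a pattern. Traf6, the ubiquitin ligase that the Irak kinases engage, had a weak peak in its first intron in adult alone (fold enrichment 2.68, percentile 11.8). Tab3, a partner of Map3k7, had a peak 145 bp from its start in adult alone, with 3.33. Cd36, a scavenger receptor, and Rnf216, a ubiquitin ligase, were also the nearest start sites of a peak in adult alone, with 3.33 and 3.88, but at a distance, 123650 bp from Cd36 in an intron of Sema3c and 12013 bp upstream of Rnf216. Ube2n, which builds ubiquitin chains with Traf6, had 4.38 in adult and 3.53 in aged/anti-IL-17A/F, and no peak in aged/control IgG. Nlrx1 (4.87 and 3.49) and Tlr9 (3.77 and 3.30) had the same pattern. With 5 of 47 (10.6%) bound in adult alone, Map3k8 included, the share over all genes was 6.47%. A peak in an aged list but not in adult was found for 0 of 47, beside 2.09% of all genes.

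As a check of the tissue, peaks were counted at marker genes, although binding does not measure expression. By the nearest start site, 5 of 7 keratinocyte markers had a peak in adult, 3 in aged/control IgG and 4 in aged/anti-IL-17A/F, and Trp63 had several in each. Of 15 markers of other cell types, the counts were 4, 2 and 3 (26.7%, 13.3% and 20%), near the 23.1%, 12.9% and 17.4% of all protein-coding genes. The endothelial gene Pecam1 had a peak at percentiles 99.8, 98.5 and 99.7 in adult, aged/control IgG and aged/anti-IL-17A/F, respectively. It lay in intron 12, 40098 to 40217 bp from the start. The macrophage gene Itgam had one at percentiles 75.2, 13.6 and 55.1, also in its intron 12, 26702 to 26732 bp from the start. Pdgfra, a fibroblast gene, had one in adult and in aged/anti-IL-17A/F, and Epcam, of Langerhans cells and keratinocytes, in adult alone. The other markers of these cells, Cdh5 of endothelium, Csf1r of macrophages and Col1a1 and Col1a2 of fibroblasts, had none in any list, nor had the melanocyte markers Dct, Mlana and Pmel. The leukocyte marker Ptprc, the Langerhans cell marker Cd207 and the T cell markers Cd3e and Cd3g had none by this rule. Within 50 kb, 10, 6 and 8 of the 15 markers had a peak (66.7%, 40% and 53.3%, beside 43.6%, 27.6% and 35.1% of all protein-coding genes), among them both T cell markers in every list and 2, 1 and 2 of the 3 melanocyte markers. The part of other cell types in the values at the members was not tested.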

How the data were processed

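The 3 p65 ChIP–seq peak lists were used, 1 per condition, and 3 input samples were not analysed here. The authors trimmed reads with Trimmomatic 0.36, aligned them to mm10, merged and deduplicated the alignments of 4 mice, downsampled each pool to an equal number of reads and ran MACS2 at a q threshold of 0.01. Whether the inputs entered is not stated. The deposited columns are a score, the fold enrichment (a ratio), −log10 of the p-value and of the q-value, and the summit offset. Pooling removes the variation between mice, and a peak near the threshold can be missing with little difference in signal. The read depth per peak is unknown.

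Peaks were assigned by their middle to curated RefSeq start sites of GRCm38.p6, and overlaps needed 1 bp. Assignment, overlap and motif steps were tested on simulated data. Python 3.11.15, pandas 2.3.3, pysam 0.24.0 and bedtools 2.31.1 were used. The members, gene lists and motifs were chosen with earlier results of these data known. Named were all members, and other pathway genes with a peak in some lists only or in the strongest 10% of any list. Alternatives were other start sites, distances, thresholds of −log10 q (5 and 10), equal numbers of peaks, the summit, other overlaps and motif windows, ranking by −log10 q and, added after the data were seen, swapping the lists labelled adult and aged/anti-IL-17A/F.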

Additional observations from a re-analysis of the deposited data

How the results depend on the processing

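Which members counted as bound depended on the start sites used. With protein-coding start sites only, Irak3 joined Tlr2 in every list, giving 2 of 10 members in each, beside 25%, 14.4% and 19.3% of all protein-coding genes in adult, aged/control IgG and aged/anti-IL-17A/F, and 6, 4 and 4 peaks. The members were thus below the share of all genes in every list by the rule used. By this one, they were above it in aged/control IgG and about equal to it in aged/anti-IL-17A/F, and in the aged lists 1 gene decides the side. With the start sites of all RefSeq transcripts, predicted ones included, adult had 3 of 10 members (Tlr6 and Irak2 were added), beside 21% of all genes, and 5 peaks. With peaks limited to 10 kb, 1 peak was counted in each list, at Tlr2, and the 1 of 10 members in aged/control IgG stood beside 8.76% of all genes. With a −log10 q of at least 10, that share was 9.67%. Counting any peak within 50 kb gave 7, 4 and 4 members with 11, 9 and 7 peaks, 31, 18 and 26 of the 47 other pathway genes, and 43.6, 27.6 and 35.1% of all protein-coding genes. With as many peaks per list as the smallest list has, the share of all genes in adult was 13.1%. The consensus was found in 5 of the 7 peaks nearest to Tlr2 within 100 bp of the summit and in 3 within 50 bp. Of the 118 values computed under alternatives, 93 stayed within 1.5 times the value given and 25 moved, all of them named here. Swapping the lists labelled adult and aged/anti-IL-17A/F was run only for counts and shares by the nearest start site, where it exchanges values already given. None of these moved by more than 1.5 times. Within 50 kb, the swap would exchange 7 of 10 members for 4 of 10, a larger change. The regions listed in adult alone would then be those of aged/anti-IL-17A/F alone. No paired analysis was possible because each condition has 1 pooled list. Without replicates and read counts, a difference in fold enrichment between lists cannot be separated from the variation between mice or pools.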

Other observations

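Among the 47 other pathway genes, 5 had a peak in every list without reaching the strongest 10% of any, and they were chosen for this paragraph after their values were seen. Tlr5, the receptor for flagellin, had a peak in its first intron with a fold enrichment of 4.92 in adult, 3.55 in aged/control IgG and 3.14 in aged/anti-IL-17A/F. Cd180, a relative of the Toll-like receptors, had its strongest peak about 120 kb upstream, with 5.98, 4.70 and 5.82. For Tbk1, a kinase that activates interferon regulatory factors, the values in the first intron were 3.80, 3.84 and 5.50, and for Irf5, one of those factors, 2.68, 3.20 and 3.97. Peli1, a ubiquitin ligase, had 6.52, 5.26 and 5.18 at a peak about 57 kb upstream. No test of these values exists, with 1 pooled list per condition.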
